A study of Mus musculus with 12 samples.

Results

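The calcium store of the heart muscle cell was examined through 10 genes of the sarcoplasmic reticulum and of the membranes it touches: Ryr2, Casq2, Casq1, Trdn, Asph, Hrc, Jph2, Atp2a2, Pln and Slc8a1. The genes were chosen by name, with 1 row per Ensembl gene, out of the 40594 genes in the count table. All 10 were found, and all 10 were among the 15494 genes that passed the filter on low counts and were tested.

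Total RNA was sequenced from ventricles of adult mouse hearts in 4 groups of 3 libraries: Wnt LOF right ventricle (RV), control RV, Wnt LOF left ventricle (LV) and control LV. Wnt LOF stands for loss of function in the Wnt pathway, through which secreted ligands stabilise beta-catenin. The labels name neither the targeted gene nor a Cre driver, strain or sex. Whether each library came from its own animal is not stated, so p-values measure spread between libraries, which may be technical in part. Y-linked reads, given below, were high only in the library numbered 3 of each group. The libraries of a group therefore did not all come from the same animal, and sex was mixed within each group. By its title, the series asks how Wnt programming and arrhythmia differ from one ventricle to the other.

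Library totals ran from 13.3 to 19.2 (in 1e+06 counted reads), and the 10 genes together took 2.55% to 3.27% of them. Heart muscle markers were present throughout, with a summed level of 68239 to 76698 CPM (counts per 1e+06 reads, scaled by TMM) for 9 ventricular genes. A pair of libraries went against their ventricle labels: Wif1, a secreted Wnt inhibitor, had 2.55 CPM in the library labelled Wnt LOF RV 1 and 13.5 CPM in the library labelled Wnt LOF LV 1, where the other 5 RV libraries had 12 to 18.4 CPM and the other 5 LV libraries 1.62 to 3.17 CPM. Ctnnb1, which encodes beta-catenin, had 352 to 453 CPM in Wnt LOF RV and 510 to 559 CPM in control RV. The ranges overlapped in the LV, at 395 to 532 CPM in Wnt LOF and 425 to 598 CPM in control. Control LV 2 was the lowest control, and Wnt LOF LV 2, at 532 CPM, was above both control LV 2 and control LV 3 (508 CPM). Of these, control LV 2 was also left out together with other libraries, and Wnt LOF LV 2 only singly. The library Wnt LOF RV 3 had the most Myl7, the atrial myosin light chain (10.2 CPM), and the most Myl4 (10.7 CPM). A list of 6 atrial marker genes, these included, summed to 50.2 CPM there. That was within the range of the libraries, from 19.1 CPM in control RV 3 to 91.2 CPM in Wnt LOF RV 1. Sln, also on that list, was highest in Wnt LOF RV 3 too, at 1.85 CPM, with at most 0.167 CPM elsewhere. The next highest libraries had 1.26 CPM of Myl7 and 2.86 CPM of Myl4. A sum of that range cannot show a rise in genes at these levels, and atrial tissue in Wnt LOF RV 3 was not tested. Ddx3y, a Y-linked gene, was at 102 to 136 CPM in the library numbered 3 of each group and under 1 CPM in the others. For RV against LV in Wnt LOF hearts, the values of Casq1, Casq2, Jph2, Atp2a2, Pln and S100a1 are also given without the libraries labelled Wnt LOF RV 1 and Wnt LOF LV 1.

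Each heartbeat releases calcium from the sarcoplasmic reticulum through the ryanodine receptor and pumps it back through SERCA. Calsequestrin buffers the stored calcium beside the release channel, triadin and junctin tether it there, and junctophilin holds the reticulum against the surface membrane. Phospholamban slows the pump until it is phosphorylated, and the sodium-calcium exchanger expels calcium across the surface membrane. Mutations of the channel and of cardiac calsequestrin are known causes of stress-induced arrhythmia in people.

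Ranked per kilobase of merged exons, the pump and its regulator stood highest. Pln averaged 2404 ± 170 CPM per kilobase and Atp2a2 1997 ± 234 CPM per kilobase (SD over all 12 libraries), with Pln above Atp2a2 in 11 of 12 libraries. Hrc followed with a mean of 471 CPM per kilobase, Casq2 with 354, Ryr2 with 199, Jph2 with 173, Slc8a1 with 33.9, Trdn with 33.3, Asph with 21.4 and Casq1 with 6.77. Slc8a1 was above Trdn in 6 of 12 libraries, so those neighbours did not differ beyond their spread, and Ryr2 was above Jph2 in 10 of 12. Atp2a2 over Hrc, Hrc over Casq2, Casq2 over Ryr2, Jph2 over Slc8a1 and Trdn over Asph each held in 12 of 12 libraries, and Asph over Casq1 in 11. The lengths merge the exons of every annotated transcript, from 1951 bases for Casq1 to 28790 for Ryr2, so a gene with long alternative ends, such as Slc8a1 with 18807 bases, is placed lower than by its main transcript.

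**Figure D1:**
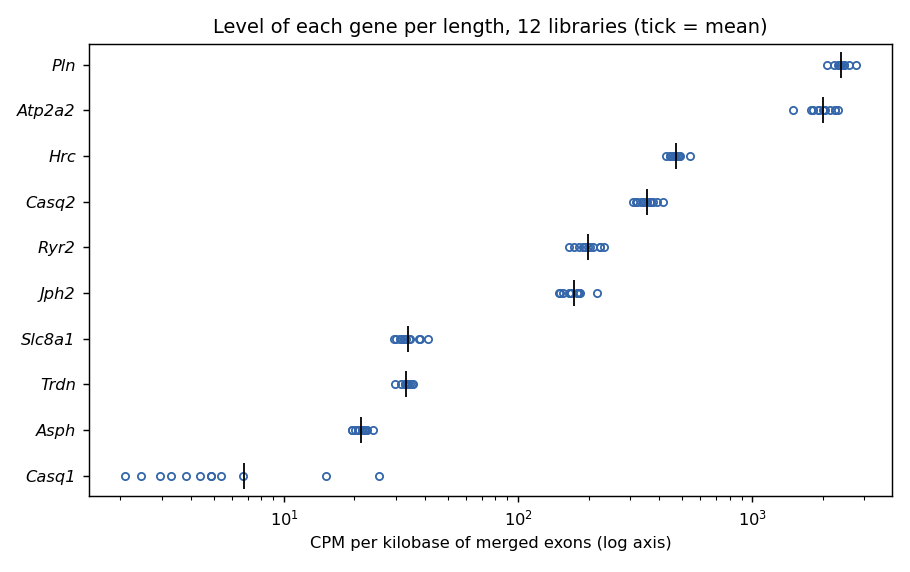
Level of each of the 10 genes per kilobase of merged exons on a log axis, 1 open circle per library (12 libraries) with a tick at the mean. Pln and Atp2a2 average 2404 and 1997 CPM per kilobase, and Casq1 is the lowest and widest, from 2.09 to 25.3 CPM per kilobase.

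None of the 10 genes passed the test for Wnt LOF against control in either ventricle, or for RV against LV in either genotype, in the planned fit. With edgeR's quasi-likelihood test on all 12 libraries and Benjamini-Hochberg adjustment over all genes tested, 0 genes had an adjusted p under 0.05 in any of the 4 comparisons or in the interaction, which is 0% of the genes tested, and DESeq2 called 0 as well. At an unadjusted p under 0.05 the test picked 0 of the 10 in each of the 4 comparisons, against 418 genes (2.7%) for Wnt LOF against control in the RV, 442 (2.85%) in the LV, 746 (4.81%) for RV against LV in Wnt LOF hearts and 757 (4.89%) in control hearts. In the interaction, which compares the Wnt LOF effect in the RV with that in the LV, 312 genes (2.01%) had an unadjusted p under 0.05, and the 10 genes ranged from -0.20 for Atp2a2 to 0.55 for Casq1 on the log2 scale, with an adjusted p of 0.9996 by edgeR for each. A p that misses the threshold does not show equal levels, so the intervals are given below.

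The groups overlapped for nearly all of the 10 genes. The 3 libraries of one group lay wholly above or below the other for 7.55% of genes tested for Wnt LOF against control in the RV, 7.91% in the LV, 7.02% for RV against LV in Wnt LOF hearts and 12.6% in control hearts. Among the 10 genes the count was 0 in the first 3 comparisons and 1 in the last, Casq2. The log2 fold changes of the 10 genes had a median of 0.018 in the RV and -0.001 in the LV for Wnt LOF against control, where all genes tested had medians of 0.001 and -0.004. For RV against LV the median was -0.020 in Wnt LOF hearts and -0.067 in control hearts, where all genes tested had -0.001 and 0.004.

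**Figure D2:**
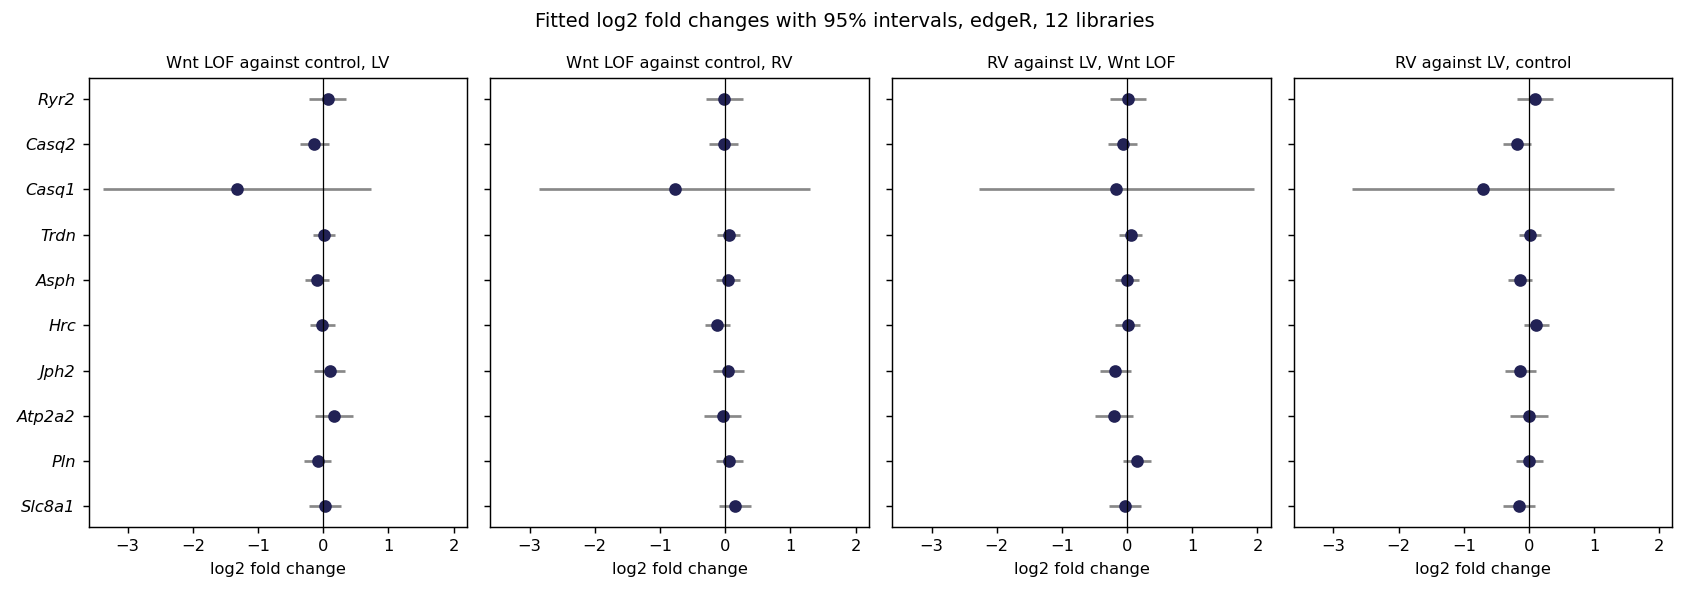
Fitted log2 fold change (horizontal axis, point) of each gene with its 95% interval (line) in the 4 comparisons, from edgeR on 12 libraries. The interval crosses 0 for every gene in every comparison, and the Casq1 intervals are several times wider than the rest.

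Ryr2 (ENSMUSG00000021313, chromosome 13) encodes the cardiac ryanodine receptor, the channel that lets calcium out of the store. It had 6431, 5572 and 5427 CPM in the Wnt LOF RV libraries 1 to 3 and 5824, 5712 and 6018 CPM in control RV. In the LV it had 6696, 5524 and 5005 CPM in Wnt LOF and 5250, 6438 and 4760 CPM in control. Both LV groups spread more widely than control RV, and all groups overlapped. The log2 fold change for Wnt LOF against control was -0.01 in the RV (SE 0.13, 95% interval -0.29 to 0.27) and 0.07 in the LV (SE 0.13, -0.21 to 0.35). Without the libraries labelled Wnt LOF LV 1 and Wnt LOF RV 1 the LV value was -0.06. The genes whose levels ran most like Ryr2 over the 12 libraries were Isoc1 (Pearson r = 0.88), Gtf2e1 (0.86) and Fam78a (0.86), among 9250 genes with a mean log2 CPM of at least 3.

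**Figure D3:**
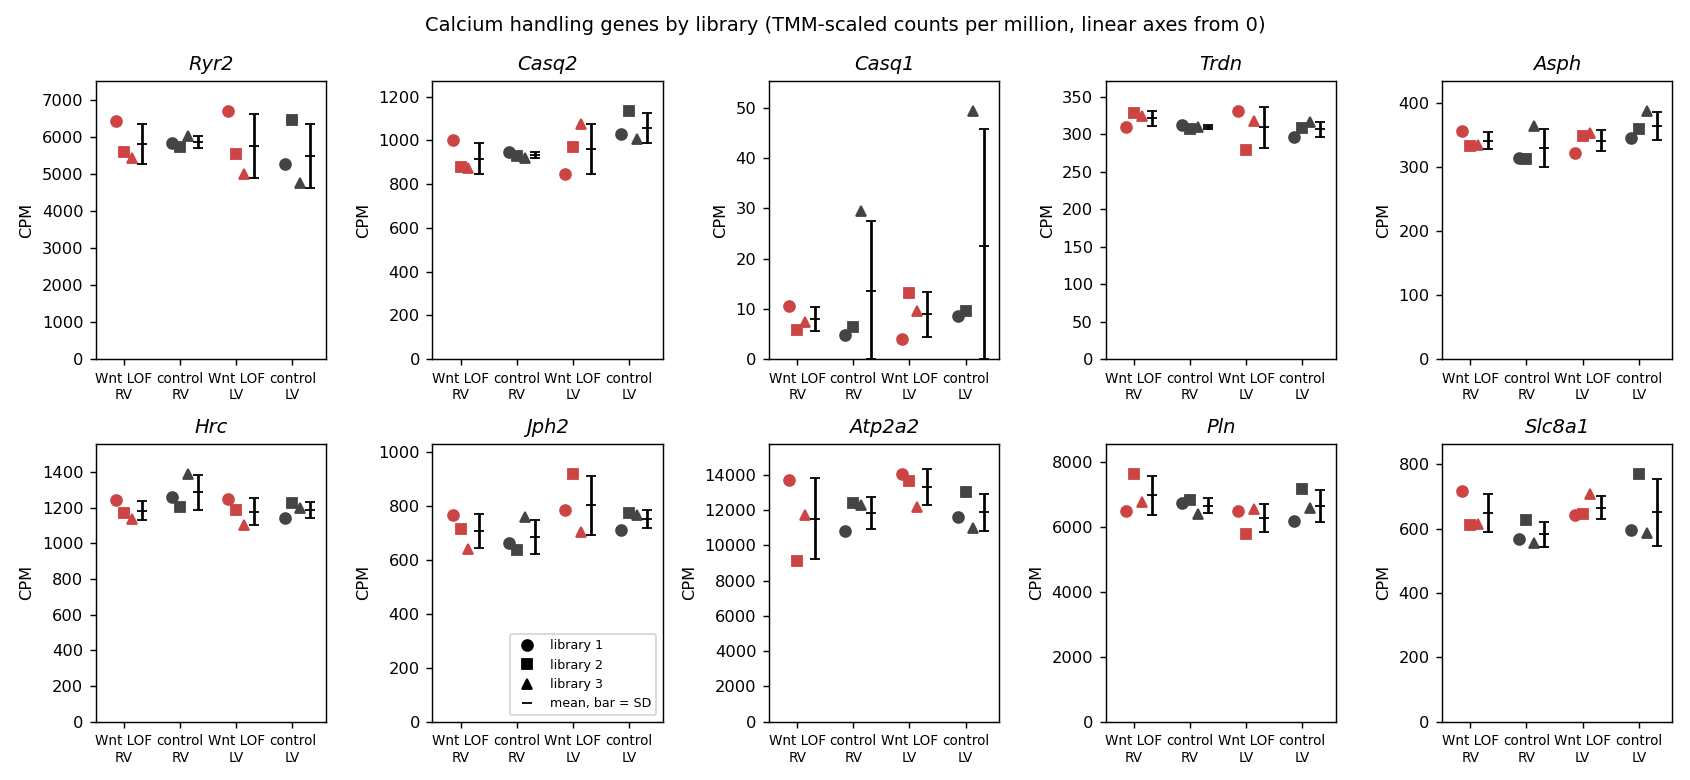
TMM-scaled CPM of each gene in every library (circle, square and triangle for libraries 1, 2 and 3 of a group), with the group mean and SD beside them (n = 3), on linear axes from 0. For 9 genes the highest library is at most 1.54 times the lowest, while Casq1 is high in control RV 3 and control LV 3; SD bars that would pass below 0 stop at 0.

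Of the pair of calsequestrins, Casq2 (ENSMUSG00000027861, chromosome 3) is the cardiac form and Casq1 (ENSMUSG00000007122, chromosome 1) the form best known from fast skeletal muscle. Their promoters are printed because the results differ most between these 2 genes, and that of Pln for comparison with another abundant gene of the store. Each window runs from 250 bases before to 50 bases after the RefSeq start on GRCm38.p6, in the direction of transcription. Windows were on hand for 7 of the 10 genes, with none for Atp2a2, Trdn and Asph.
Casq2, chr3:102086165-102086464, + strand: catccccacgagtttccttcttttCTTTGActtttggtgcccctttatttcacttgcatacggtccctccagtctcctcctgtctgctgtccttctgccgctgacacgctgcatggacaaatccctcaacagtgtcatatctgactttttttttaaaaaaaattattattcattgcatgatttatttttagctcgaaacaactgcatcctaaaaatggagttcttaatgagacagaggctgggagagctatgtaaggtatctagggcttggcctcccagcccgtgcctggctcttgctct
Casq1, chr1:172219846-172220145, - strand: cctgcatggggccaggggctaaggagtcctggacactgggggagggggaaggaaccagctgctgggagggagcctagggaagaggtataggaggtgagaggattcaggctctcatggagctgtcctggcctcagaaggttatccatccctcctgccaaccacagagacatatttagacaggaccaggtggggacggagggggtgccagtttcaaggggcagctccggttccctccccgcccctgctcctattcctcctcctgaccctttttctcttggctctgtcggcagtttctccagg
Pln, chr10:53337436-53337735, + strand: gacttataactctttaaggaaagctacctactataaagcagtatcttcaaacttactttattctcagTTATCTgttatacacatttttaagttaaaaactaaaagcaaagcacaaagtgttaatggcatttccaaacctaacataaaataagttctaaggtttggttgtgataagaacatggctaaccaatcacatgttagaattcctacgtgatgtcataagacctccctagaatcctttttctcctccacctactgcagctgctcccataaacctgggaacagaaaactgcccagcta
Capitals mark matches, on either strand, to a TCF/LEF core, a GATA motif or a MEF2 motif, each only in the form searched. The TCF/LEF core, bound by the DNA-binding partners of beta-catenin, was searched as CTTTGA. Casq2 held the TCF/LEF core 226 bases before the start, as do 16.0% of all 32851 windows of this length, and it was the 1 match among the 8 windows of the 7 genes. The GATA motif, searched as AGATAA, matched in Pln, 183 bases before the start, and in Slc8a1, 68 bases before, against 11.2% of all windows, and the MEF2 letters matched in none of the 8, against 3.69%. The MEF2 letters were searched in 1 form only, with C first and G last. With T in place of that C, the Casq2 window holds a match, which is not in capitals. Other forms of the MEF2 motif were not counted, in these windows or in the share of all windows. Among the forms searched, no 2 matches overlapped, and the Casq1 window held none of the letters searched. A match is a description of letters, and no binding was measured.

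Casq2 was the 1 gene of the 10 whose RV and LV libraries did not overlap in control hearts, as was so for 12.6% of genes tested. It had 949, 931 and 919 CPM in control RV, all below the 1028, 1135 and 1008 CPM of control LV, which gave a log2 fold change of -0.18 (SE 0.10, 95% interval -0.40 to 0.04, adjusted p = 0.92 by edgeR). In Wnt LOF hearts the RV had 1001, 877 and 874 CPM and the LV 844, 970 and 1073 CPM, which overlapped, with a log2 fold change of -0.07 (SE 0.10). The library labelled Wnt LOF LV 1, the lowest of its group, was also the one with RV-like Wif1. Without that library and Wnt LOF RV 1 the value for RV against LV in Wnt LOF hearts was -0.22 (adjusted p = 0.57 by edgeR). For Wnt LOF against control, Casq2 stood at -0.02 in the RV (SE 0.10) and -0.13 in the LV (SE 0.10), and the authors' deposited table gives -0.063 and -0.178.

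Casq1 was the least abundant and the most variable of the 10. It had 10.5, 5.77 and 7.41 CPM in Wnt LOF RV, and 4.79, 6.42 and 29.5 CPM in control RV. It had 4.09, 13.1 and 9.47 CPM in Wnt LOF LV, and 8.53, 9.53 and 49.4 CPM in control LV. The libraries control RV 3 and control LV 3 stood apart, with 453 and 654 reads, while the other 10 libraries ran from 4.09 to 13.1 CPM. Its SD within groups was 1.1 on the log2 scale, larger than that of 99.9% of the 9251 genes with a mean log2 CPM of at least 3, whose median was 0.14.

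Both libraries high in Casq1 also held Y-linked Ddx3y. The Wnt LOF libraries numbered 3, which held Ddx3y too, had 7.41 CPM of Casq1 in the RV and 9.47 CPM in the LV. Only the library numbered 3 of each group was high in Ddx3y, so sex and the single library cannot be told apart. A list of 10 marker genes of fast skeletal muscle, of which 4 passed the filter, summed to 4.43 CPM in control RV 3 and 4.38 CPM in control LV 3, against 3.12 to 4.99 CPM in the other libraries, with 1 to 3 of the 10 at 0 in each library. Neither sex nor skeletal muscle content was tested as a cause of the high Casq1. Asph, the junctin gene, had its highest levels in the same libraries, 365 CPM in control RV 3 and 388 CPM in control LV 3, and over the 12 libraries its Pearson r with Casq1 was 0.88. The genes most like Casq1 were Grb10 (r = 0.92), Ttll7 (0.90) and Ammecr1 (0.89), each highest in control LV 3 and next highest in control RV 3. These correlations are descriptions over 12 libraries and were not recomputed without control RV 3 and control LV 3.

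The genotype difference of Casq1 followed those libraries. For Wnt LOF against control the log2 fold change was -0.77 in the RV (SE 0.91, 95% interval -2.85 to 1.31, adjusted p = 1.0 by edgeR) and -1.32 in the LV (SE 0.90, -3.38 to 0.73, adjusted p = 0.999). Without control LV 3 and control RV 3 it was 0.50 in the RV and -0.02 in the LV. The authors' deposited table gives -1.04 in the RV with an unadjusted p of 0.0702 and -1.25 in the LV with an unadjusted p of 0.0286, both with adjusted values (0.918 and 0.841) above the threshold.

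Within control hearts, Casq1 was lower in the RV than in the LV library of the same number in 3 of 3 pairs, at high levels (number 3) and at low levels (numbers 1 and 2) alike. The differences were -0.82, -0.56 and -0.74 on the log2 scale for numbers 1 to 3, and all 3 pairs had one sign for 35.5% of genes tested. In the planned fit, without pairing, the log2 fold change for RV against LV was -0.71 (SE 0.88, adjusted p = 0.96 by edgeR). With the replicate number as a block over all 12 libraries it was -0.72 (SE 0.44, adjusted p = 0.66). In a fit of the 6 control libraries alone with that block, chosen after the data were seen, it was -0.72 (SE 0.11, 95% interval -0.95 to -0.49, adjusted p = 0.0019 by edgeR), and Casq1 was the 1 gene of the 10 called, where that fit called 326 of 14899 genes (2.19%). Without the control pair numbered 2, whose LV library had the low Ctnnb1, it was -0.77 (adjusted p = 0.026 by edgeR), and without the pair numbered 3 it was -0.70 (adjusted p = 0.067). Each of these fits holds only 2 pairs and rests largely on spread shared across genes, so its adjusted p adds little to the call. So the call rests on the pairing, which comes from the data and not from the labels, and on the fit of the control libraries alone.

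In Wnt LOF hearts the pairs went both ways. Casq1 was higher in the RV than in the LV library of number 1, by 1.33 on the log2 scale, and differed by -1.16 for number 2 and -0.35 for number 3. Number 1 was the pair whose Wif1 went against the labels, with 2.55 CPM in the library labelled RV and 13.5 CPM in that labelled LV. In 6 of 6 pairs Casq1 was lower in the library with more Wif1. The same held for Casq2, Asph and Slc8a1, so for 4 of the 10 genes, where 12.8% of genes tested lay on one side of Wif1 in all 6 pairs. This comparison of signs was chosen after the values were seen and is a description. The log2 fold change for RV against LV was -0.16 (SE 0.93, adjusted p = 1.0 by edgeR) in the planned fit and -0.10 (SE 0.57, adjusted p = 0.99) in the 6 Wnt LOF libraries alone with the block, a fit that called 1 gene (0.00669%). With the block and without pair 1, the pair of opposite sign, it was -0.76 (SE 0.21, adjusted p = 0.094 by edgeR). That value averages numbers 2 and 3, which lay far apart, and its SE rests largely on spread shared across genes. A repeat of the control difference was therefore not shown. All 3 Wnt LOF pairs had one sign for 27% of genes tested. The interaction for Casq1 was 0.55 (SE 1.28), so the ventricle difference was not shown to differ between genotypes. Leaving out 1 library moved it between -0.75 (without control LV 3) and 1.82 (without control RV 3), and without Wnt LOF pair 1 it was -0.06.

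**Figure D4:**
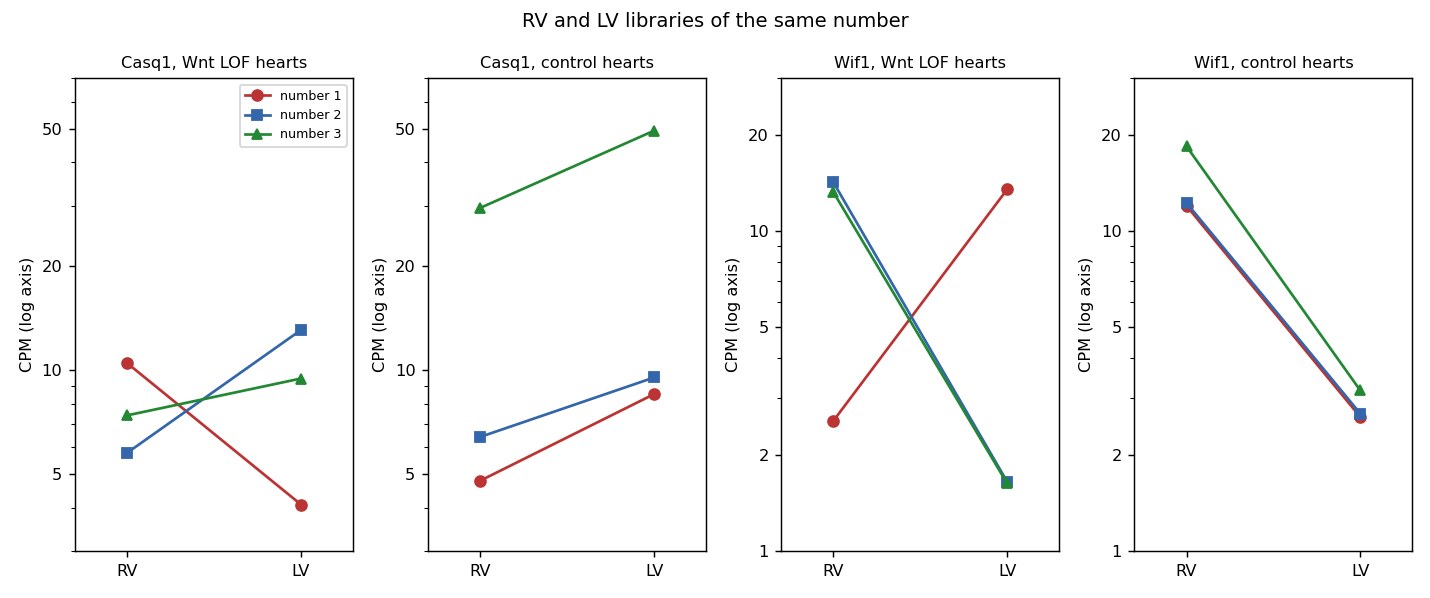
CPM on a log axis of Casq1 (left panels) and of Wif1 (right panels) in the RV and LV libraries of the same number, joined by lines, for Wnt LOF and control hearts. Casq1 is lower in the RV in all 3 control pairs and in Wnt LOF pairs 2 and 3; in Wnt LOF pair 1 both genes run the other way.

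Trdn and Asph, whose products hold calsequestrin and the channel together, had the smallest ratios of highest to lowest library. Trdn (ENSMUSG00000019787, chromosome 10), which encodes triadin, ran from 278 to 331 CPM over the 12 libraries, a ratio of 1.19 where Asph had 1.24 and Hrc 1.26, and averaged 321 ± 9.64 CPM in Wnt LOF RV, 309 ± 2.95 in control RV, 309 ± 27.3 in Wnt LOF LV and 306 ± 10.03 in control LV (SD, n = 3 each). Its log2 fold change for Wnt LOF against control was 0.05 in the RV (95% interval -0.12 to 0.23) and 0.01 in the LV (-0.16 to 0.18). Asph (ENSMUSG00000028207, chromosome 4) encodes junctin together with the aspartyl/asparaginyl hydroxylase and junctate from one locus, so its gene count cannot tell these products apart. It averaged 341 ± 12.97 CPM in Wnt LOF RV, 330 ± 29.5 in control RV, 341 ± 16.5 in Wnt LOF LV and 364 ± 21.8 in control LV. RV was below LV in 3 of 3 control pairs of Asph, where 35.5% of genes tested had 1 sign in all 3. The log2 fold change for RV against LV in control hearts was -0.14 (SE 0.09, adjusted p = 0.92 by edgeR).

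Hrc (ENSMUSG00000038239, chromosome 7), a histidine-rich calcium-binding protein inside the store, averaged 1184 ± 53.7 CPM in Wnt LOF RV, 1286 ± 96.0 in control RV, 1178 ± 73.4 in Wnt LOF LV and 1189 ± 44.6 in control LV. Its log2 fold change for Wnt LOF against control was -0.12 in the RV (SE 0.09, 95% interval -0.31 to 0.07) and -0.01 in the LV (SE 0.09). Jph2 (ENSMUSG00000017817, chromosome 2), the cardiac junctophilin, averaged 708 ± 62.1 CPM in Wnt LOF RV, 686 ± 63.7 in control RV, 803 ± 109 in Wnt LOF LV and 751 ± 33.7 in control LV. Jph2 was lower in the RV than in the LV in 3 of 3 Wnt LOF pairs and 3 of 3 control pairs, yet the groups overlapped. The log2 fold change for RV against LV was -0.18 in Wnt LOF hearts (SE 0.11, adjusted p = 1.0 by edgeR) and -0.13 in control hearts (SE 0.11, adjusted p = 0.94). Without the libraries labelled Wnt LOF RV 1 and Wnt LOF LV 1 the Wnt LOF value was -0.26 (adjusted p = 0.64), and without Wnt LOF LV 2 it was -0.08. Jph2 was the 1 gene of the 10 with the same sign by label in all 6 pairs, which 5.87% of genes tested had. With each pair turned by Wif1, as for Casq1, 1 of the 6 pairs of Jph2 went the other way.

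Atp2a2 (ENSMUSG00000029467, chromosome 5) encodes SERCA2, the pump that refills the store, and took more reads than any other of the 10. It had 13726, 9117 and 11746 CPM in Wnt LOF RV, and 10820, 12434 and 12303 CPM in control RV. It had 14084, 13664 and 12168 CPM in Wnt LOF LV, and 11591, 13058 and 11000.5 CPM in control LV. Wnt LOF RV 2 was the lowest library of all, and the groups overlapped in both ventricles. The log2 fold change for Wnt LOF against control was -0.04 in the RV (SE 0.13, 95% interval -0.33 to 0.25) and 0.16 in the LV (SE 0.13, -0.13 to 0.45). Without Wnt LOF RV 2 the RV value was 0.10, and without control LV 2 the LV value was 0.24 (adjusted p = 1.0 by edgeR for both). RV was below LV in 3 of 3 Wnt LOF pairs and in 2 of 3 control pairs. All 3 Wnt LOF pairs had 1 sign for 27% of genes tested. In control hearts the log2 fold change for RV against LV was -0.004 (SE 0.13). In Wnt LOF hearts it was -0.21 (SE 0.13, adjusted p = 1.0), and -0.06 without Wnt LOF RV 2. Without the libraries labelled Wnt LOF RV 1 and Wnt LOF LV 1 it was -0.31 (adjusted p = 0.59). Among the genes most like Atp2a2 over the 12 libraries were Mfn1 (Pearson r = 0.93) and Nrd1 (0.92).

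Pln (ENSMUSG00000038583, chromosome 10), phospholamban, is the inhibitor of that pump. It had 6485, 7644 and 6780 CPM in Wnt LOF RV, and 6744, 6827 and 6394 CPM in control RV. It had 6483, 5771 and 6545 CPM in Wnt LOF LV, and 6175, 7157 and 6573 CPM in control LV. Wnt LOF RV 2, lowest in Atp2a2, was the highest library in Pln. RV was above LV in 3 of 3 Wnt LOF pairs, a count with 1 sign that 27% of genes tested had, but in 1 of 3 control pairs. Wnt LOF pair 1, whose labels are in doubt, was nearly level, at 6485 CPM in the RV and 6483 CPM in the LV. The log2 fold change for RV against LV was 0.15 in Wnt LOF hearts (SE 0.10, 95% interval -0.06 to 0.36) and 0.00 in control hearts (SE 0.10, -0.21 to 0.21). The Wnt LOF value ran from 0.08 (without Wnt LOF RV 2) to 0.19 (without Wnt LOF RV 1) when 1 library was left out, and was 0.23 (adjusted p = 0.61) without the pair in doubt. The difference between genotypes was 0.15 (SE 0.14, adjusted p = 0.9996 by edgeR). Pon3 (r = 0.89), Tpgs1 (0.88) and Dcn (0.87) ran most like Pln, the last a fibroblast gene.

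The ratio of inhibitor to pump within a library does not depend on the scaling between libraries. Wnt LOF RV had 47.2, 83.8 and 57.7 Pln reads per 100 Atp2a2 reads, and control RV had 62.3, 54.9 and 52.0. Wnt LOF LV had 46.0, 42.2 and 53.8, and control LV had 53.3, 54.8 and 59.7. Wnt LOF RV 2 was highest by a wide margin, and the lowest 3 values included both libraries whose Wif1 went against their labels. The log2 ratio differed by 0.12 between Wnt LOF and control in the RV (exact permutation p = 0.8) and by -0.25 in the LV (exact permutation p = 0.2). For RV against LV it differed by 0.38 in Wnt LOF hearts (exact permutation p = 0.2) and 0.01 in control hearts (exact permutation p = 0.9). Without Wnt LOF RV 2 the value in Wnt LOF hearts was 0.15, and that for Wnt LOF against control in the RV was -0.11. Without the libraries labelled Wnt LOF RV 1 and Wnt LOF LV 1 these values were 0.55 and 0.31. With 3 libraries against 3 the two-sided exact test cannot go below 0.1, and over the 12 tests of 3 ratios the smallest adjusted p was 0.8.

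**Figure D5:**
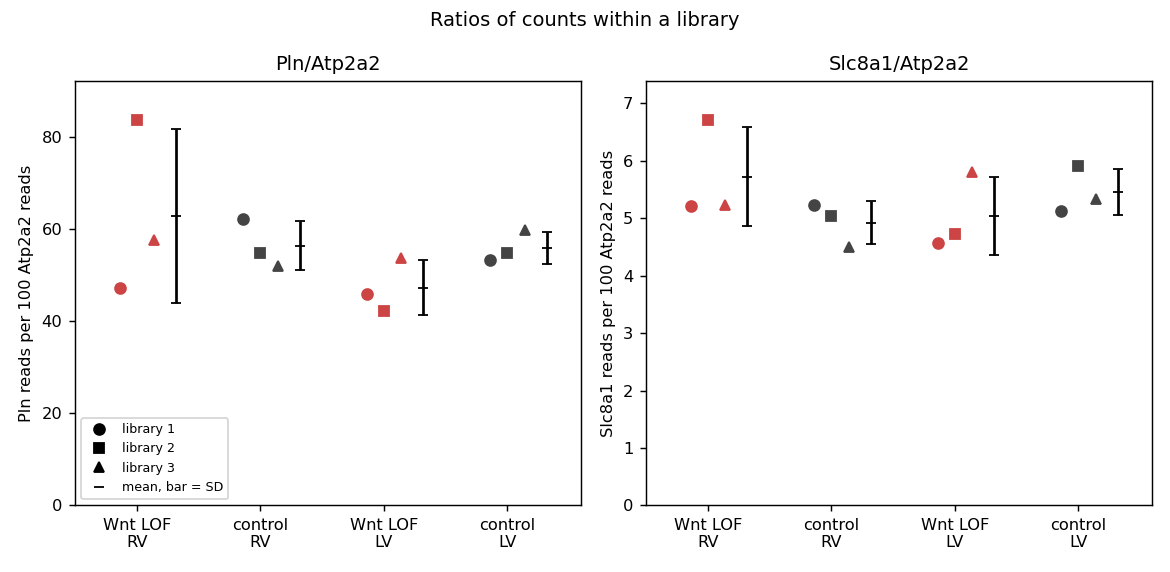
Pln reads (left) and Slc8a1 reads (right) per 100 Atp2a2 reads in each library, with the group mean and SD (n = 3), on axes from 0. Wnt LOF RV 2 is the highest library in both panels, at 83.8 and 6.72.

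Slc8a1 (ENSMUSG00000054640, chromosome 17) encodes the sodium-calcium exchanger of the surface membrane. It averaged 648 ± 59.7 CPM in Wnt LOF RV, 582 ± 38.9 in control RV, 666 ± 35.9 in Wnt LOF LV and 651 ± 104 in control LV (SD, n = 3 each). The log2 fold change for Wnt LOF against control was 0.15 in the RV (SE 0.11, 95% interval -0.09 to 0.40) and 0.03 in the LV (SE 0.11, -0.21 to 0.28). Slc8a1 reads per 100 Atp2a2 reads averaged 5.72 ± 0.862 in Wnt LOF RV and 4.93 ± 0.379 in control RV, a log2 difference of 0.21 (exact permutation p = 0.3, n = 3 each). They averaged 5.04 ± 0.675 in Wnt LOF LV and 5.46 ± 0.401 in control LV, a log2 difference of -0.12 (exact permutation p = 0.4). The ratio of Casq1 to Casq2 reads was 0.851% ± 0.195 in Wnt LOF RV, 1.47% ± 1.51 in control RV, 0.905% ± 0.433 in Wnt LOF LV and 2.19% ± 2.35 in control LV, with exact permutation p-values of 0.5 to 1 in the 4 comparisons.

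Spread within groups set what could be seen. Outside Casq1, the SD within groups on the log2 scale ran from 0.073 for Trdn to 0.18 for Atp2a2, against a median of 0.141 for the 9251 genes with a mean log2 CPM of at least 3. Each of those 9 genes had at least 4174 reads in every library, so counting error was small beside that spread. Fewer heart muscle cells and less RNA per cell cannot be told apart in RNA of whole ventricle.

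A wider list of 49 calcium cycling genes, chosen like the 10 with earlier results of these data known, held other channels, pumps, exchangers and regulators. Of these, 43 were tested, 5 were below the filter (Ppp1ca, Sln, Mrln, Jph4 and Slc8a3) and 1 name, Strit1, was not matched. The count called was 0 of 43 in each comparison. At an unadjusted p under 0.05 it was 2 for Wnt LOF against control in the RV, 1 in the LV, 2 for RV against LV in Wnt LOF hearts and 4 in control hearts. The shares of all genes tested were 2.7%, 2.85%, 4.81% and 4.89%. The list's medians were 0.004, -0.004, 0.022 and -0.013 on the log2 scale. In the same order, groups lay wholly higher for 2, 0, 2 and 2 genes of the list and wholly lower for 1, 0, 2 and 5. Of all genes tested, 7.55%, 7.91%, 7.02% and 12.6% lay wholly higher or lower. In the fits of 1 genotype alone with the block, 0 of 42 were called in Wnt LOF and 0 of 42 in control hearts.

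Jsrp1, which encodes a protein of the junctional sarcoplasmic reticulum known from skeletal muscle, gave the smallest unadjusted p of the wider list, at 3 to 14 reads a library. It lies below the level set for naming genes and was named after its values were seen. It had 0.610, 0.721 and 0.894 CPM in Wnt LOF RV, all above the 0.167, 0.265 and 0.261 CPM of control RV, a log2 fold change of 1.66 (SE 0.44, adjusted p = 1.0 by edgeR). In the LV it had 0.296, 0.395 and 0.784 CPM in Wnt LOF and 0.720, 0.632 and 0.604 CPM in control, which overlapped. Control RV was wholly below control LV, by -1.49 on the log2 scale (SE 0.45, adjusted p = 0.92), and the interaction was 2.06 (SE 0.59, adjusted p = 0.9996).

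Among the more abundant wider genes, S100a1, a calcium sensor that binds the ryanodine receptor and SERCA, had the smallest unadjusted p. In 3 of 3 Wnt LOF pairs it was higher in the RV, where 27% of genes tested had 1 sign in all 3. It had 445, 625 and 678 CPM in Wnt LOF RV against 319, 315 and 478 CPM in Wnt LOF LV, a log2 fold change of 0.65 (SE 0.21, adjusted p = 1.0 by edgeR). Without the libraries labelled Wnt LOF RV 1 and Wnt LOF LV 1 it was 0.72 (adjusted p = 0.40). The Wnt LOF LV libraries gave a log2 fold change of -0.46 (SE 0.21, adjusted p = 0.999) against control LV, which had 634, 455 and 438 CPM. Itpr2, an inositol trisphosphate receptor, had 114, 139 and 131 CPM in Wnt LOF RV, all below the 167, 141 and 163 CPM of control RV, a log2 fold change of -0.30 (SE 0.12, adjusted p = 1.0), and -0.22 without Wnt LOF RV 1 and Wnt LOF LV 1. Atp2b1, a calcium pump of the surface membrane, had 78.4, 82.3 and 83.5 CPM in control RV, all below the 92.7, 92.0 and 93.8 CPM of control LV, a log2 fold change of -0.19 (SE 0.09, adjusted p = 0.92). The library labelled Wnt LOF RV 1 had 94.7 CPM of Atp2b1, in the range of the LV libraries, and Wnt LOF LV 1 had 92.6 CPM. Ryr3 (0.65, SE 0.37, in Wnt LOF hearts and 0.64, SE 0.38, in control hearts for RV against LV), Sri, Pde4d, Slc8b1, Mcu, Atp2a3 and Speg completed the genes named by size, each with an adjusted p of at least 0.92 by edgeR.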

How the data were processed

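RNA of mouse ventricles was measured by sequencing in 12 libraries, 4 groups of 3 taken from the sample titles. The authors deposited raw counts of reads per Ensembl gene, per the file headers, with 41192 rows for 40594 genes; 598 repeats of a gene, equal in counts, were left out. Their deposited comparison tables give log2 fold changes, p-values and adjusted p-values. Per the submitters' processing notes, the tools included featureCounts (Subread) and edgeR. Aligner, versions, build and strandedness: not given in the sources used here, and antisense or overlapping genes therefore cannot be told apart. The members and lists were chosen with earlier results of these data known.

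Counts were tested with edgeR 4.0.16 in R 4.3.3 (filterByExpr by group, TMM, robust quasi-likelihood, 1 mean per group, 5 contrasts), with Benjamini-Hochberg adjustment over 15494 genes and a threshold of 0.05; DESeq2 1.42.0 was an alternative. The SE is the log2 fold change over the square root of F. CPM is TMM-scaled, and log2 CPM uses a prior count of 2. Ratios of counts were compared by exact two-sided permutation (scipy 1.17.1). Scripts were tested on simulated data. Lengths are merged exons of GENCODE M21 (GRCm38), matched by Ensembl ID for 10 of 10 genes, and promoters are RefSeq's, matched by symbol for 7 of 10.

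Genes named are the 10 members, the wider list's genes with the 2 largest log2 fold changes in each direction per comparison (mean log2 CPM of at least 1), and the 3 genes most correlated with Ryr2, Atp2a2, Pln and Casq1, of which 1 is not reported here. Whether numbers pair libraries was checked by correlating deviations from group means over tested genes: RV and LV libraries gave 0.191, 0.197 and 0.594 in Wnt LOF and 0.411, 0.29 and 0.517 in control hearts for numbers 1 to 3, all above 0.1, so the numbers were taken to pair ventricles. In Wnt LOF hearts the values do not single out numbers 1 and 2: RV 2 gave 0.201 with LV 1, and RV 1 gave 0.133 with LV 2, so counts over Wnt LOF pairs rest on a weaker pairing than those over control pairs. Across genotypes 3 of 6 same-number correlations were not above 0.1, and those comparisons were taken as unpaired. Libraries of different genotypes could also pass 0.1. Wnt LOF LV 1 gave 0.321 with control LV 2, and Wnt LOF RV 3 gave 0.306 with control RV 3. The libraries numbered 3 all held Y-linked reads, so a shared heart and a shared sex cannot be told apart for that number. The pairing comes from these values and not from the labels.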

Additional observations from a re-analysis of the deposited data

How the results depend on the processing

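The 40 log2 fold changes of the 10 genes were each recomputed under 16 to 19 alternatives, which gave 683 values, of which 618 kept direction and side of the threshold, 63 changed sign and 2 passed it. Both that passed were Casq1 for RV against LV in the control libraries alone with the replicate block (-0.72, and -0.77 without the control pair numbered 2). The second of these values rests on 2 pairs of libraries. The cause of the sign changes was not tested; 62 of them concerned values smaller than their SE. The block changed no other call of a member.

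Scaling by total counts gave -0.043 for Ryr2, -0.0058 for Trdn and -0.053 for Hrc (RV against LV, Wnt LOF), -0.011 for Pln and -0.0030 for Trdn (RV against LV, control) and 0.022 for Hrc (Wnt LOF against control, LV). Asph for RV against LV in Wnt LOF hearts, -0.0003 as reported, was 0.0019 with DESeq2's size factors, 0.0019 with DESeq2, 0.0016 with a term for Y-linked reads and 0.00016 with the replicate block. Without the libraries labelled Wnt LOF LV 1 and Wnt LOF RV 1, Wnt LOF against control was -0.058 for Ryr2 and -0.042 for Trdn in the LV and -0.014 for Jph2 in the RV, and the log2 ratio of Casq1 to Casq2 for RV against LV in Wnt LOF hearts was -0.55. Without control LV 2 as well these were 0.0051 for Casq2 and -0.038 for Trdn in the LV, -0.014 for Jph2 in the RV, and 0.070 for Atp2a2 (RV against LV, control). In the control libraries alone with the block, Atp2a2 was 0.030 without pair 2 and Ryr2 -0.015 without pair 3. Without control LV 3 and control RV 3, Casq1 was 0.50 for Wnt LOF against control in the RV. These last fits, and all fits of 2 groups with the block, were chosen after the data were seen.

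Leaving out each library in turn changed the sign of 22 of the 40 values and moved another 15 by over 1.5 times. The values that changed sign ran as follows. For Wnt LOF against control in the RV they ran from -0.18 to 0.10 for Atp2a2, -1.18 to 0.50 for Casq1, -0.092 to 0.010 for Casq2, -0.014 to 0.12 for Jph2, -0.0044 to 0.12 for Pln, -0.089 to 0.038 for Ryr2. For Wnt LOF against control in the LV they ran from -0.056 to 0.047 for Hrc, -0.0071 to 0.20 for Jph2, -0.059 to 0.20 for Ryr2, -0.030 to 0.18 for Slc8a1, -0.043 to 0.085 for Trdn. For RV against LV in Wnt LOF hearts they ran from -0.041 to 0.016 for Asph, -0.51 to 0.22 for Casq1, -0.15 to 0.0034 for Casq2, -0.051 to 0.052 for Hrc, -0.085 to 0.14 for Ryr2, -0.13 to 0.00073 for Slc8a1, -0.018 to 0.11 for Trdn. For RV against LV in control hearts they ran from -0.056 to 0.067 for Atp2a2, -1.99 to 0.58 for Casq1, -0.050 to 0.059 for Pln, -0.018 to 0.035 for Trdn. The log2 ratios of counts ran for Wnt LOF against control in the RV from -0.83 to 0.50 for Casq1/Casq2, -0.11 to 0.31 for Pln/Atp2a2, for RV against LV in Wnt LOF hearts from -0.38 to 0.36 for Casq1/Casq2, for RV against LV in control hearts from -1.35 to 0.31 for Casq1/Casq2, -0.065 to 0.066 for Pln/Atp2a2. In the interaction, the sign changed for Casq1 (-0.75 to 1.82), Jph2 (-0.15 to 0.058), Ryr2 (-0.21 to 0.053), Slc8a1 (-0.020 to 0.19) and Trdn (-0.028 to 0.10).

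The number of genes called stayed at 0 for both genotype comparisons under each alternative run, the replicate block included, although numbers were not taken to pair genotypes. For RV against LV in Wnt LOF hearts it was 1 with the replicate block, 2 without pair 1, 2 without control LV 2 as well, 0 to 1 leaving out each library, 1 in the 6 libraries alone with the block, and 241 in that fit without pair 1. In control hearts it was 9 in the 6 libraries alone, 326 with the block too, and 67 and 193 in that fit without pair 2 and pair 3. It was 2 without Wnt LOF LV 1, Wnt LOF RV 1 and control LV 2. The fits of 1 genotype with the block that leave out a pair hold 2 pairs each, so their counts rest largely on spread shared across genes. The interaction had 1 call with the block. With 3 libraries a group, the intervals set the limit: outside Casq1, those of the 4 comparisons in the planned fit run from -0.50 to 0.45 on the log2 scale, those of the interaction from -0.61 to 0.47, and those of 1 genotype alone with the block from -0.55 to 0.43.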
